A study of Mus musculus with 24 samples.

Results

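The levels of 8 genes of the regulated cell death machinery were followed in mouse embryonic fibroblasts (MEF) that lack H3K9 methyltransferases (KMT). They are the caspase genes *Casp1*, *Casp4*, *Casp8*, *Casp9* and *Casp12* and the necroptosis genes *Ripk1*, *Ripk3* and *Mlkl*. The genes were taken by symbol from the 47937 gene entries of the count table, and each symbol had 1 entry. All 8 genes are described here. The test needed a minimum of reads, and 7 of the 8 genes passed it. *Ripk3* did not, and *Casp1* passed only through the conditions in which it was detected.

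Total RNA of 24 MEF cultures was sequenced, 3 in each of 8 conditions. All lines derive from 1 clone with a conditional *Eset1* (*Setdb1*) allele and a Cre recombinase that 4-hydroxytamoxifen (4-OHT) activates, so the controls carry these alleles too. The paper states that after the CRISPR/Cas9 mutations an inducible Cre construct with EGFP and puromycin resistance was added again. It states that the lines then stayed under puromycin, and does not name the parent clone for this step. A part of this step in differences from WT cannot be told apart from the mutations. WT is this clone without 4-OHT. *E1* is the same clone after 4-OHT, which removes floxed exons of *Eset1*. *E2* is a clone with frameshift mutations in *Eset2* (*Setdb2*) without 4-OHT, and *E1E2* is that clone after 4-OHT. *E1E2 G9Gl* adds mutations in *G9a* (*Ehmt2*) and *Glp* (*Ehmt1*), and *6KO2* further adds mutations in *Suv39h1* and *Suv39h2*. In the other series, *E1 S1S2* lacks *Eset1*, *Suv39h1* and *Suv39h2*, and *6KO1* was made from it by mutating the remaining KMT genes. These 4 lines were all treated with 4-OHT. Each mutant line is 1 clone, so the 3 cultures of a condition share a clone, genotype and clone cannot be told apart, and p-values measure the spread between cultures. In the sample labels the treatment entry is the same for every sample, and the titles mark WT and *E2* as controls, which was followed here.

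Caspases are proteases that are made as inactive precursors. Caspase-8 starts apoptosis from death receptors and caspase-9 from mitochondria, while caspase-1 and mouse caspase-4 (also called caspase-11) are inflammatory caspases that cut gasdermin D and cause pyroptosis, caspase-1 downstream of inflammasomes and caspase-4 after binding bacterial lipopolysaccharide. Caspase-12 is a related protein of the same family. Necroptosis is the lytic death that follows when the kinase RIPK1, or another protein with the same interaction motif such as ZBP1, engages the kinase RIPK3, which phosphorylates the pore-forming protein MLKL, and caspase-8 cuts RIPK1 and RIPK3 and so holds necroptosis back. Several genes of these pathways are known interferon or NF-kB targets.

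*Casp1*, *Casp4* and *Casp12* lie next to each other on the plus strand of chromosome 9 in GRCm38, at chr9:5298517-5307265, chr9:5308828-5336783 and chr9:5345430-5373032. The remaining genes are scattered, with *Casp8* at chr1:58795374-58847503, *Casp9* at chr4:141793612-141815976, *Ripk1* at chr13:34002363-34037147, *Ripk3* at chr14:55784995-55788865 and *Mlkl* at chr8:111311797-111338177. All 8 genes were matched to RefSeq promoters (GRCm38.p6, 250 bases before to 50 bases after the gene start), with a pair of annotated starts for *Casp4* and for *Ripk1*. The 3 chromosome 9 promoters are poor in CpG, with 3 CpG in *Casp1*, 5 in *Casp4* and 3 in *Casp12*, against a median of 7 over 32851 promoters, of which 43.6% held 5 or fewer. *Casp8* held 5 CpG, *Mlkl* 7 and *Ripk3* 10. For *Casp8* the RefSeq start lies inside the gene span given above, so its promoter here is chr1:58802252-58802551, and the start of that span was not searched. *Casp9* with 28 and the *Ripk1* starts with 22 and 36 are CpG-rich, as were the 23.1% of all promoters that held 22 or more. Both strands were searched for the letters of 4 motifs: the interferon-stimulated response element (ISRE), GAAA and GAAA spaced by 2 bases, found in 3.44% of all promoters, the gamma-activated site (GAS) TTCNNNGAA in 8.3%, an NF-kB motif, GGG and TTTCC spaced by 2 bases, in 1.63% and the E-box CACGTG in 7.15%.

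The stretches below hold the matches in the 3 chromosome 9 genes, whose highest and lowest levels differed by the largest ratios, and the ISRE match of *Ripk1*, the gene that was above WT in every mutant library. Capitals mark the match, and all lines are written on the plus strand, which is the coding strand of these genes.
Casp1 E-box, chr9:5298369-5298396: tgcagcagaaaCACGTGtggcagccttc
Casp4 NF-kB, chr9:5308747-5308774: tgagttacaGGGGATTTCCccacagcag
Casp4 NF-kB on the other strand, chr9:5308826-5308853: ctatgctaaGGAAATGCCCagtaacttt
Casp12 GAS, chr9:5345365-5345392: tggttgactTTCTGGGAAaagagcagga
Casp12 GAS, chr9:5345431-5345458: ttggtatgtTTCTGGGAAggaaaggcac
Ripk1 ISRE at the downstream start, chr13:34002860-34002887: acgttcccgGAAATCGAAAagcgcggaa
The *Ripk1* ISRE match shares bases with a GAS match, and that promoter holds 1 further GAS match. *Ripk3* held 1 E-box match, and the promoters of *Casp8*, *Casp9* and *Mlkl* held none of these letters. A match describes the sequence only, and no binding was measured here.

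Library totals ran from 24737307 to 37419816 counts, and gene totals from 19541909 to 31489070. Levels are given as counts per 1000000 counts of the TMM-scaled gene total (CPM), and differences as log2 fold changes with their standard error (SE). A gene was called where the absolute log2 fold change was at least 1 and the p-value of edgeR's quasi-likelihood test, adjusted over all 18565 genes tested, was at most 0.01, and "rose" and "fell" are used only of called genes. *Setdb1* transcripts were below WT (60.4 ± 2.87 CPM, SD, n = 3) in every mutant condition, but *E2* (48.7 ± 7.71) and *E1E2* (48.8 ± 1.71) did not differ (log2 difference 0.01, SE 0.08, adjusted p = 0.99 by edgeR), so these counts do not check the 4-OHT label of that clone. WT replicate 2 and *E2* replicate 2 stood apart from their groups, and results that rest on them are given with and without them. The summed level of 8 fibroblast markers, which include the collagens, was 912 to 1099 CPM per kb of exon in WT and lowest in *6KO1*, at 522 to 572. In *6KO1* all 8 markers were below WT at an adjusted p of at most 0.01 and 4 fell, with a median log2 fold change of -1.22. In *E1E2 G9Gl* the summed level was above WT, at 1133 to 1222 CPM per kb. There 2 of the 8 markers rose and 1 fell, with a median log2 fold change of 0.09. *Pdgfra*, a fibroblast receptor, fell from 5.09 CPM in WT to 0.123 in *6KO1*, 0.541 in *E1E2 G9Gl* and 2.08 in *E2*, and *Thy1* was near 0 in *E1 S1S2*, *6KO1* and *6KO2*.

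*Casp1*, the inflammasome protease, was not detected in WT and was present at a low level in 3 mutant conditions. It had 0 counts in each of the 12 WT, *E1*, *E1 S1S2* and *E1E2* libraries, and 1, 1 and 0 counts in the *E2* libraries. It had 34, 44 and 24 counts in *6KO1*, while the *E1E2 G9Gl* libraries had 19, 17 and 20 and the *6KO2* libraries 16, 11 and 11. These 9 libraries all lay above every library of the other conditions. The 3 WT libraries together allow up to 0.0391 CPM (3 counts), and limits and intervals of this kind cover counting error only. The pooled level was 31.1 times that limit in *6KO1* (1.22 CPM, exact Poisson 95% interval 0.993 to 1.48). It was 22.1 times the limit in *E1E2 G9Gl* (0.862, 0.651 to 1.12) and 14.0 times in *6KO2* (0.546, 0.387 to 0.75). These ratios use the pooled levels, not the lower ends of the intervals, and are not lower bounds. *Casp1* entered the test only through these 3 conditions, so no p-value is given for them against WT, and the counts of calls below are also given without it. Even in *6KO1* the mean of 0.806 CPM per kb of exon was the lowest of the 5 caspase genes. In bulk RNA, a few cells with much *Casp1* and many cells with little cannot be told apart.

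Markers of macrophages and other leukocytes, which normally express *Casp1*, also rose in part in the same conditions. Of 8 markers 5 were tested, and 5 rose in *6KO1*, 3 in *6KO2* and 4 in *E1E2 G9Gl*, beside 1 in *E1 S1S2*, 1 in *E1E2* and 2 in *E1*. Over all genes 20.6%, 15.3% and 16.8% rose in the first 3 of these conditions. In WT 4 of the 8 markers had 0 counts and 7 were at or below 1 CPM. Markers almost silent in WT pass the filter only through libraries in which they are high, so these counts of calls are partly set by the filter. Of 4 endothelial markers, 3 rose in *6KO1*, 4 in *6KO2* and 2 in *E1E2 G9Gl*. The summed level of the 8 macrophage and other leukocyte markers was 2.81 to 3.33 CPM per kb in WT and 2.81 to 3.74 in *6KO2*. It was 6.84 to 7.91 in *E1E2 G9Gl* and 15.8 to 17.6 in *6KO1*. *Adgre1*, a defining macrophage marker, had 0 counts in every library, and *Csf1r* stayed at or below 0.286 CPM on average in every condition. The pan-leukocyte gene *Ptprc* had 0 counts in WT and was at 1.89 ± 0.103 CPM in *E1E2 G9Gl*, at 0.740 ± 0.343 in *6KO2* and at 0.619 ± 0.0372 in *6KO1* (SD, n = 3). *Cd68* reached 19.4 CPM in *6KO1*, and *Itgam* 20.04 CPM in *E1E2 G9Gl*. The part of leukocyte RNA in the *Casp1* result was not tested.

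**Figure D1:**
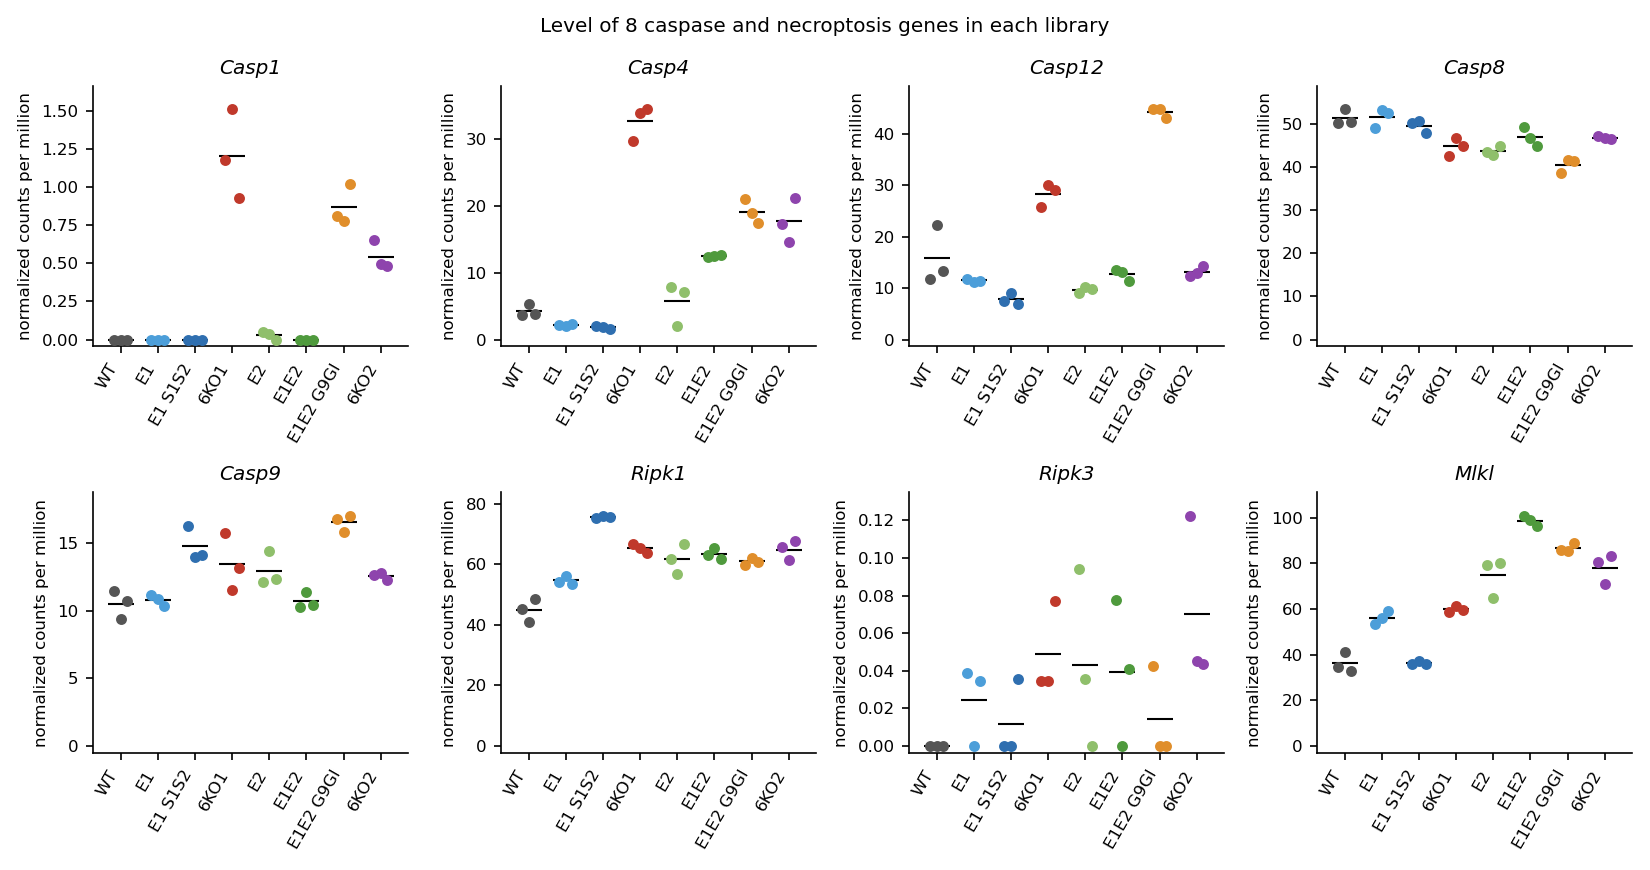
CPM (normalized counts, y axis, linear, a separate scale for each gene) of the 8 genes in each of the 24 libraries (points), by condition (x axis), with the mean of 3 libraries as a horizontal line. *Casp1* points leave 0 in *6KO1*, *E1E2 G9Gl* and *6KO2* apart from single counts in *E2*, *Mlkl* is lowest in WT and *E1 S1S2*, and *Ripk3* never passes 0.123 CPM.

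*Casp4*, the intracellular lipopolysaccharide sensor, had the largest ratio of highest to lowest mean level among the members detected in every condition. Its libraries were at 3.70, 5.30 and 3.88 CPM in WT, 2.16, 2.03 and 2.36 in *E1*, and 2.10, 1.82 and 1.53 in *E1 S1S2*. They were at 29.8, 34.0 and 34.6 CPM in *6KO1*, all above every other library. In the series that starts with *Eset2*, the libraries were at 7.94, 2.02 and 7.18 CPM in *E2*, 12.4, 12.5 and 12.7 in *E1E2*, 21.1, 18.9 and 17.5 in the *E1E2 G9Gl* line and 17.3, 14.6 and 21.2 in *6KO2*. Thus the *E1* and *E1 S1S2* libraries all lay below WT, those of *E1E2*, *E1E2 G9Gl*, *6KO1* and *6KO2* all above it, and *E2* overlapped it through replicate 2. *Casp4* rose against WT in *6KO1* (log2 fold change 2.92, SE 0.25, adjusted p = 4.7e-10 by edgeR), *E1E2 G9Gl* (2.15, SE 0.26, adjusted p = 1.1e-07), *6KO2* (2.03, SE 0.26, adjusted p = 3.9e-07) and *E1E2* (1.54, SE 0.26, adjusted p = 4.6e-05). It fell by 1.24 on the log2 scale in *E1 S1S2* (SE 0.32, adjusted p = 2.4e-03), a call that was lost without WT replicate 2 (-1.05, adjusted p = 0.018) or *E1 S1S2* replicate 3 (-1.13). In *E1* the difference of -0.98 (SE 0.32, adjusted p = 0.029) was not called.

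The steepest step of *Casp4* was from *E1 S1S2* to *6KO1*, where *Eset2*, *G9a* and *Glp* were mutated and the gene rose by 4.16 on the log2 scale (SE 0.28, adjusted p = 9.6e-12 by edgeR). In the other series, it rose from *E2* to *E1E2* by 1.18 (SE 0.26, adjusted p = 1.9e-03), but *E2* replicate 2 decided this call, since without it the difference was 0.73, and the call was also lost when only the 6 libraries of both conditions were fitted (1.16, adjusted p = 0.044). *Setdb1* was also lowest in that library, at 40.2 CPM against 50.7 and 55.2 in the other two. The step to *E1E2 G9Gl* (0.61, SE 0.23, adjusted p = 0.025) was not called, nor was the step to *6KO2* (-0.12, SE 0.23, adjusted p = 0.69), where the libraries overlapped.

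*Casp12*, the third gene of the chromosome 9 group, followed another order. Its libraries were at 11.9, 22.3 and 13.3 CPM in WT, with replicate 2 high, at 11.8, 11.2 and 11.5 in *E1*, and at 7.51, 8.98 and 6.93 in *E1 S1S2*. In *6KO1* they were at 25.8, 30.1 and 29.1 CPM, in *E2* at 9.02, 10.2 and 9.85, and in *E1E2* at 13.5, 13.2 and 11.4. The *E1E2 G9Gl* libraries, at 44.9, 44.9 and 43.2 CPM, lay above all others, and those of *6KO2* were back at 12.4, 12.96 and 14.4. Both *6KO1* and *E1E2 G9Gl* lay wholly above WT, and *6KO2* overlapped it. *Casp12* rose in *E1E2 G9Gl* (log2 fold change 1.48, SE 0.14, adjusted p = 4.3e-09 by edgeR). In *6KO1* the difference of 0.83 (SE 0.14, adjusted p = 1.9e-05) was under the fold minimum, and it was called without WT replicate 2 (1.17). It fell by 1.03 on the log2 scale in *E1 S1S2* (SE 0.16, adjusted p = 7.4e-06), and this call was lost without WT replicate 2 (-0.69), without *E1 S1S2* replicate 1 (-0.997) or 3 (-0.95), and when only the 6 libraries of both conditions were fitted (-0.98). In *E1*, *E2*, *E1E2* and *6KO2* the differences of -0.47, -0.71, -0.32 and -0.26 were not called. With each library left out in turn, they ran from -0.63 to -0.13 in *E1* and from -0.88 to -0.37 in *E2*. Without WT replicate 2 they were 0.012 in *E1E2* and 0.070 in *6KO2*.

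Between neighbouring lines, *Casp12* rose with the mutation of *G9a* and *Glp* from *E1E2* to *E1E2 G9Gl* by 1.802 on the log2 scale (SE 0.15, adjusted p = 2.8e-10 by edgeR), and fell by 1.74 (SE 0.15, adjusted p = 8.8e-10) when *Suv39h1* and *Suv39h2* were then mutated in *6KO2*. It rose from *E1 S1S2* to *6KO1* by 1.86 (SE 0.15, adjusted p = 3.3e-10). The loss of *Suv39h1* and *Suv39h2* after *Eset1* alone went with a difference of -0.56 (SE 0.16, adjusted p = 5.9e-03) between *E1 S1S2* and *E1*, with no overlap of the libraries. In *E1E2 G9Gl*, where *Suv39h1* and *Suv39h2* are not mutated, transcripts of 5 of the 6 KMT genes fell against WT (8.41% of all genes). From there to *6KO2*, 3 KMT transcripts were higher and 1 lower at an adjusted p of at most 0.01. No other gene tested lies within 200 kb of the 3 genes. Over the 24 libraries, Pearson's r of log2 CPM was 0.82 between *Casp1* and *Casp4*, 0.79 between *Casp1* and *Casp12* and 0.71 between *Casp4* and *Casp12*. These libraries come from 8 conditions of shared ancestry, and the values are a description.

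**Figure D2:**
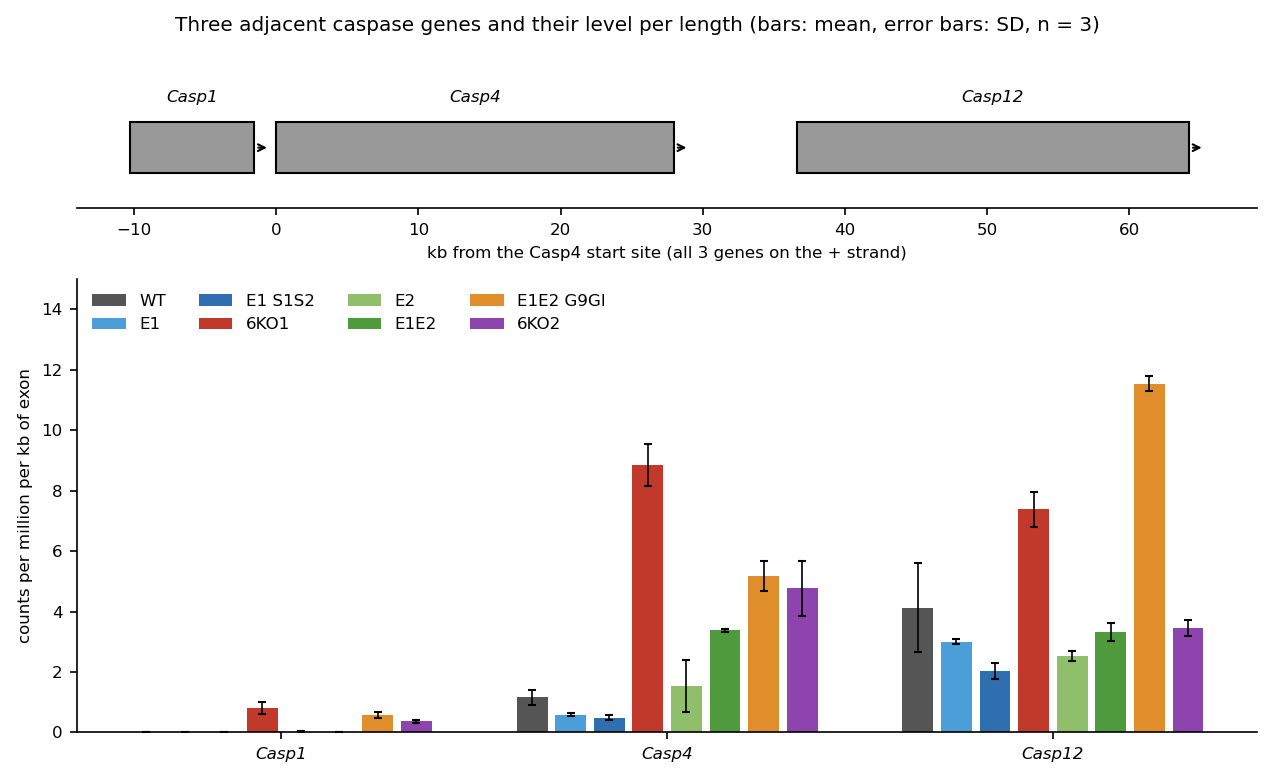
Upper panel, the positions of *Casp1*, *Casp4* and *Casp12* as boxes along chromosome 9 (x axis, kb from the *Casp4* start). Lower panel, mean CPM per kb of exon (y axis, linear from 0) of the 3 genes in the 8 conditions, with error bars for the SD of 3 libraries. *Casp4* is highest in *6KO1* (8.84) and *Casp12* in *E1E2 G9Gl* (11.5).

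The apoptotic initiators *Casp8* and *Casp9* were expressed in every library, and neither was called in any comparison. *Casp8*, the protease of death receptor complexes, had mean levels from 40.5 ± 1.64 CPM (SD, n = 3) in *E1E2 G9Gl* to 51.6 ± 2.21 in *E1*, with WT at 51.3 ± 1.82. All libraries of *6KO1*, *E2*, *E1E2*, *E1E2 G9Gl* and *6KO2* lay below all WT libraries, by log2 differences between -0.34 (SE 0.05, adjusted p = 6.2e-06 by edgeR) in *E1E2 G9Gl* and -0.13 (SE 0.05, adjusted p = 0.053) in *E1E2*. In *E1* (0.01) and *E1 S1S2* (-0.05) the libraries overlapped WT. Sorted by mean, neighbouring conditions of *Casp8* overlapped throughout except at the last step from *E2* to *E1E2 G9Gl*.

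*Casp9*, the protease activated by the cytochrome c apoptosome, ranged from 10.5 ± 1.05 CPM in WT to 16.5 ± 0.645 in *E1E2 G9Gl* (SD, n = 3). Its libraries lay wholly above WT in *E1 S1S2* (log2 difference 0.49, SE 0.10, adjusted p = 2.6e-04 by edgeR), *6KO1* (0.36, SE 0.10, adjusted p = 3.1e-03), *E1E2 G9Gl* (0.65, SE 0.10, adjusted p = 5.6e-06), *E2* (0.31, SE 0.10, adjusted p = 0.022) and *6KO2* (0.26, SE 0.10, adjusted p = 0.032). In *E1* (0.04) and *E1E2* (0.03) they overlapped it. Exons of *Casp9* share 94 bases with *Cela2a* and *Ctrc* on the opposite strand, and the strand setting of the counting was not given in the sources used here.

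*Ripk1*, the kinase that links TNF receptors to survival or death, was higher in every mutant library than in every WT library, by less than the fold minimum. Its WT libraries were at 45.4, 40.9 and 48.5 CPM. The mean was 54.6 ± 1.32 in *E1*, 75.6 ± 0.405 in *E1 S1S2*, and between 60.9 and 65.3 in the other 5 conditions, where neighbours in the order of the means overlapped. The log2 differences from WT ran from 0.28 in *E1* (SE 0.06, adjusted p = 1.5e-03 by edgeR) to 0.75 in *E1 S1S2* (SE 0.06, adjusted p = 5.0e-10), and all 7 adjusted p were at most 0.01. *E1 S1S2* lay above all other libraries, and the step from it to *6KO1* was -0.21 (SE 0.06, adjusted p = 3.9e-03). Exons of *Ripk1* share 511 bases with the pseudogene *Gm17084* on the same strand and 241 with *Serpinb6a* on the other, so a part of its reads may belong to them.

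*Ripk3*, the kinase that phosphorylates MLKL, was at the limit of detection in every condition. It had between 0 and 3 counts per library, 0 in WT in all (up to 0.0391 CPM allowed) and 5 in *6KO2* in all (0.0719 CPM, exact Poisson 95% interval 0.0233 to 0.168). It was not tested, and a difference between conditions was not detectable at this depth.

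*Mlkl*, the executor of necroptosis, was by contrast well expressed, and it rose in the 4 conditions with mutated *Eset2* that were derived through the *E2* clone. Its libraries were at 34.6, 41.1 and 32.9 CPM in WT and at 35.9, 37.02 and 35.8 in *E1 S1S2*, which overlapped WT. They were at 53.2, 55.9 and 59.1 CPM in *E1* and at 58.6, 61.1 and 59.7 in *6KO1*. In *E2* they were at 79.2, 64.9 and 80.0 CPM, in *E1E2* at 101, 98.9 and 96.2, in *E1E2 G9Gl* at 85.7, 85.3 and 88.9, and in *6KO2* at 80.5, 70.7 and 83.1. All libraries of the latter 4 conditions lay above those of the former 4. *Mlkl* rose against WT in *E1E2* (log2 fold change 1.45, SE 0.08, adjusted p = 1.4e-12 by edgeR), *E1E2 G9Gl* (1.26, SE 0.08, adjusted p = 2.3e-12), *6KO2* (1.11, SE 0.08, adjusted p = 4.1e-11) and *E2* (1.04, SE 0.08, adjusted p = 6.2e-10). The *E2* value fell just under the fold minimum without WT replicate 3 (0.98), *E2* replicate 1 (0.999) or *E2* replicate 3 (0.99).

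In *E1* (0.63, SE 0.08, adjusted p = 2.6e-06 by edgeR) and *6KO1* (0.72, SE 0.08, adjusted p = 2.9e-08) *Mlkl* was higher than WT without reaching the fold minimum, and in *E1 S1S2* it was at the WT level (0.00, SE 0.08). The difference of *E1 S1S2* from *E1* was -0.63 (SE 0.08, adjusted p = 8.7e-07), and that of *6KO1* from *E1 S1S2* was 0.72 (SE 0.08, adjusted p = 4.6e-08). Per kb of exon, *Mlkl* was at 15.7 ± 1.9 CPM in WT and *Casp8* at 17.7 ± 0.63, while *Ripk1* was at 5.38 ± 0.46, *Casp12* at 4.12 ± 1.5, *Casp9* at 2.02 ± 0.2 and *Casp4* at 1.16 ± 0.24 (SD, n = 3). In *E1E2*, *Mlkl* reached 42.8 ± 1 CPM per kb, the highest level of any of the 8 genes in any condition.

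**Figure D3:**
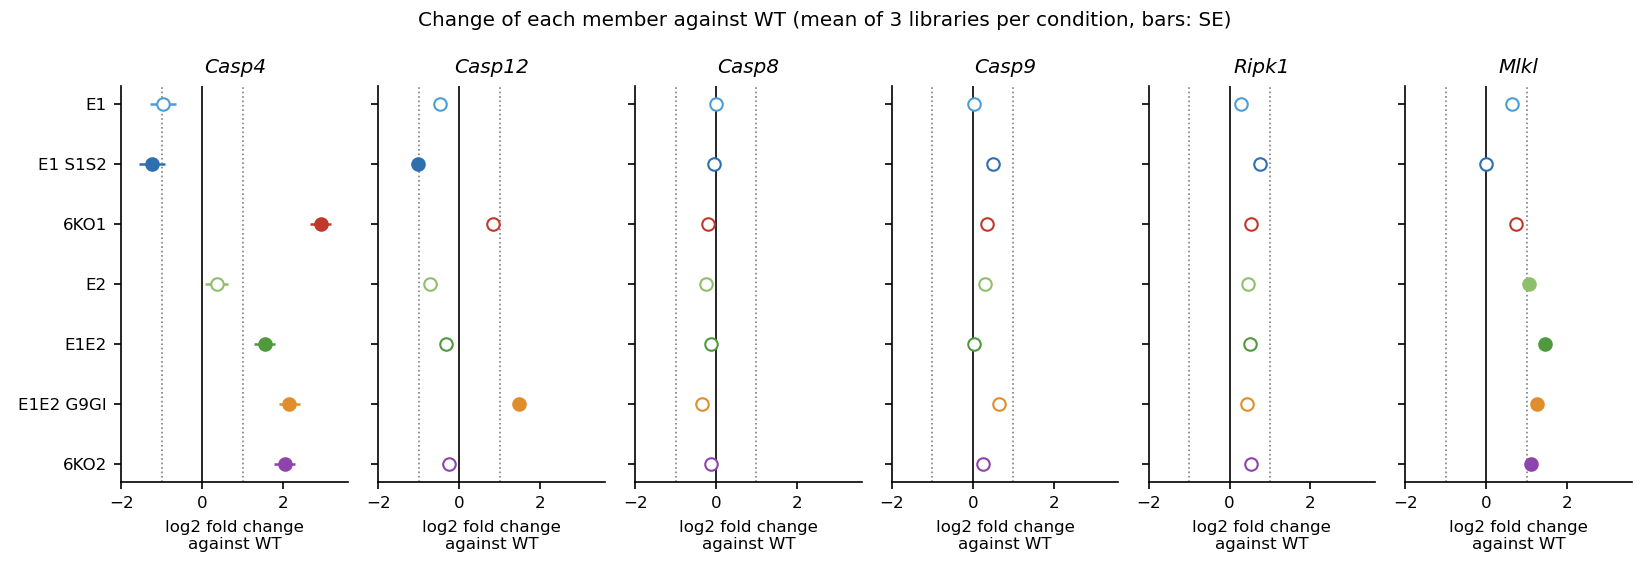
Log2 fold change against WT (x axis) of the 6 members detected in all conditions, by mutant condition (y axis), with bars for the SE, dotted lines at the fold minimum and filled points for called changes. *Casp4* spans from -1.24 to 2.92, while *Casp8*, *Casp9* and *Ripk1* stay within the dotted lines in all 7 conditions.

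Counted over the 7 tested members, calls were few in the single mutants and more frequent in the compound mutants, as they were over all genes. In *E1*, 0 members were higher and 0 lower by edgeR and by DESeq2, while 2.27% and 1.99% of all genes tested were called higher and lower. At an unadjusted p under 0.05 there were 2 members higher and 2 lower. Percentages of all genes, here and below, use the call thresholds. The share of all genes at an unadjusted p under 0.05 was not determined, so member counts at that limit have no background. In *E2*, 1 member was higher (2.9% of all genes) and 0 lower (3.21%, 2 at an unadjusted p under 0.05). In *E1 S1S2*, 2 were lower (5.11%) and 0 higher (6.65%, 2 at an unadjusted p under 0.05). In *E1E2*, 2 were higher (5.51%) and 0 lower (3.22%, 2 at an unadjusted p under 0.05). In *6KO1*, *Casp1* and *Casp4* were called higher (20.6%), in *E1E2 G9Gl* *Casp1*, *Casp4*, *Casp12* and *Mlkl* (16.8%), and in *6KO2* *Casp1*, *Casp4* and *Mlkl* (15.3%). In each of these 3 conditions 0 members were lower by edgeR and by DESeq2, against 10.2%, 8.41% and 5.39% of all genes, and 1 member (*Casp8*) was lower at an unadjusted p under 0.05. Since *Casp1* passed the filter on reads only through these conditions, the counts over the other 6 members were 1, 3 and 2, and their median log2 fold change was 0.63 for *6KO1*, 0.96 for *E1E2 G9Gl* and 0.40 for *6KO2*, beside 0.06, 0.01 and 0.04 for all genes tested. These conditions share the WT libraries.

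Step by step, 0 members were called from *E1* to *E1 S1S2* by edgeR and by DESeq2 (8.06% of all genes in either direction, and 2 members higher and 2 lower at an unadjusted p under 0.05). From *E1 S1S2* to *6KO1*, *Casp1*, *Casp4* and *Casp12* rose together (3 members, 21.3% of all genes in either direction). From *E2* to *E1E2* 1 member was called (*Casp4*, 2.97%), from *E1E2* to *E1E2 G9Gl* 2 were called (*Casp1* and *Casp12*, 21.6%), and from *E1E2 G9Gl* to *6KO2* 1 was called (*Casp12*, 16.3%). The filter bears on the *Casp1* calls of these steps too, and without *Casp1* 2 members rose into *6KO1* and 1 into *E1E2 G9Gl*. *Casp1* did not pass the test in the step to *6KO2* (log2 difference -0.66, SE 0.29, adjusted p = 0.072).

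The lines *6KO1* and *6KO2* lack the same KMT genes but were built in different orders, and 2 members were called between them (16.9% of all genes in either direction). *Casp1* was higher in *6KO1* by 1.15 on the log2 scale (SE 0.27, adjusted p = 1.7e-03 by edgeR), a call that was lost with DESeq2 (adjusted p = 0.0108) and without *6KO1* replicate 2 (0.95) or *6KO2* replicate 3 (adjusted p = 0.0101). *Casp12* was higher in *6KO1* by 1.098 (SE 0.15, adjusted p = 1.1e-06). *Casp4* was higher by 0.89 (SE 0.22, adjusted p = 1.5e-03), under the fold minimum, and *Mlkl* was lower by -0.39 on that scale (SE 0.08, adjusted p = 2.0e-04), in each case with no overlap of the libraries. *Casp8* (-0.06), *Casp9* (0.10) and *Ripk1* (0.01) overlapped between both lines.

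For 2 contrasts of changes, the difference itself was tested by edgeR. The change of *Casp4* after 4-OHT was higher by 2.16 on the log2 scale in the *Eset2*-mutant clone than in the parent clone (SE 0.41, adjusted p = 6.1e-04, 3.42% of all genes called for it in either direction, 1 member). The change of *Casp12* on loss of *Suv39h1* and *Suv39h2* was -1.18 (SE 0.22, adjusted p = 8.2e-05) in the series after *G9a* and *Glp* relative to that after *Eset1* alone (16.5% of all genes, 1 member).

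The other genes of these pathways were taken from lists of known components. *Casp14*, a caspase of keratinocyte differentiation, went from 0.102 CPM in WT to 1.26 in *6KO1* (log2 fold change 3.54, SE 0.43), 13.4 in *E1E2 G9Gl* (6.94, SE 0.32) and 1.64 in *6KO2* (3.91, SE 0.42). Like *Casp1*, it passed the filter on reads only through these conditions, so no p-value is given. Its level was 0.0562 CPM in *E1 S1S2* and 0.0259 in *E1E2*, and it had 0 counts in *E2*. The summed level of 6 epithelial and keratinocyte markers was 0.633 to 0.98 CPM per kb in WT, 13.7 to 14.5 in *6KO1*, 12.95 to 13.7 in *6KO2* and 6.45 to 6.83 in *E1E2 G9Gl*. It was also above WT where *Casp14* was not, at 5.196 to 6.41 in *E1 S1S2*, 4.44 to 5.76 in *E2* and 2.56 to 3.65 in *E1E2*. *Casp2* and *Casp6* were not called in any condition against WT.

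Of 16 death receptor and adaptor genes, 14 were tested, and 4 rose in each of *6KO1*, *E1E2*, *E1E2 G9Gl* and *6KO2*. This is 28.6% of the tested genes in each, beside 20.6%, 5.51%, 16.8% and 15.3% of all genes. In *E1 S1S2* and *E2* 2 rose (14.3%, beside 6.65% and 2.9%). *Fas*, a death receptor, went from 2.11 CPM in WT to 33.1 in *6KO1* (log2 fold change 3.96, SE 0.24, adjusted p = 9.7e-13 by edgeR), 19.7 in *6KO2*, 9.61 in *E1E2* and 6.05 in *E1E2 G9Gl*. *Tnfrsf1b*, a TNF receptor, went from 15.3 CPM to 61.9 in *6KO1*, 57.5 in *6KO2* and 66.7 in *E1E2 G9Gl*, and was between 35.02 and 39.3 in *E1 S1S2*, *E2* and *E1E2*, where it also rose. *Tnfaip3*, an inhibitor of NF-kB signalling, went from 26.0 CPM to 87.3 in *6KO1*, 165 in *6KO2* and 87.5 in *E1E2 G9Gl*, and was as high in *E1 S1S2* (94.0) and *E1E2* (94.8), with 58.0 in *E2*. The ligand gene *Tnfsf10* (TRAIL) had 0 counts in WT and was at 0.347 CPM in *6KO1*, 0.420 in *E1E2 G9Gl* and 0.151 in *E1E2*. It passed the filter on reads only through mutant libraries, so the filter bears on the counts of calls of this list too. The median log2 fold change of this list in *6KO1* was 0.48, beside 0.06 for all genes.

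Of 12 necroptosis regulators, all tested, 5 rose in *6KO1*, 3 in *E1E2 G9Gl*, 2 each in *E1 S1S2*, *E1E2* and *6KO2*, and 1 in *E2*, while 1 fell in *E1E2 G9Gl*. The shares that rose were 41.7% in *6KO1*, 16.7% in *6KO2* and 25% in *E1E2 G9Gl*, beside 20.6%, 15.3% and 16.8% of all genes, so those of *6KO2* and all genes were near each other. *Zbp1*, the nucleic acid sensor that can engage RIPK3, went from 0.389 CPM in WT to 10.5 in *6KO1* (log2 fold change 4.73, SE 0.27, adjusted p = 2.1e-13 by edgeR) and 2.03 in *6KO2* (2.37, SE 0.32), and was at 0.600 in *E1E2 G9Gl* (0.61, SE 0.41, adjusted p = 0.19). Its mean level was above that of *6KO2* in lines with fewer mutated KMT genes, a difference not tested, at 4.58 CPM in *E1E2* (3.53, SE 0.29) and 3.95 in *E1 S1S2* (3.32, SE 0.29), and rose in *E2* to 1.33 (1.71, SE 0.35). *Tlr3*, a receptor for double-stranded RNA, was at 3.02 CPM in WT and rose in *E1E2* (9.10), *6KO2* (12.1), *6KO1* (23.1) and *E1E2 G9Gl* (39.1). *Adar*, the RNA-editing enzyme that limits sensing by ZBP1, went from 48.8 CPM to 157 in *6KO1* (1.69, SE 0.11) and 109 in *E1E2 G9Gl* (1.16, SE 0.11), and *Eif2ak2* (PKR) from 76.4 to 159 in *6KO1* (1.05, SE 0.09). In *6KO2* *Adar* was at 61.8 CPM (0.34, SE 0.11) and *Eif2ak2* at 95.2 (0.32, SE 0.09), without a call.

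Of 20 inflammasome and pyroptosis genes, 11 were tested, and 8 rose and 1 fell in *6KO1*, 6 rose in *E1E2 G9Gl* and 7 in *6KO2*, beside 20.6%, 16.8% and 15.3% of all genes that rose. In *E1 S1S2* and *E1E2* 3 rose and 2 fell, in *E2* 1 rose and 1 fell, and in *E1* 1 fell. Genes almost silent in WT, such as *Naip5*, *Gbp5* and *Il1a*, passed the filter only through mutant libraries in which they were high, so these counts of calls are partly set by the filter, and fitted fold changes are large at low levels. *Naip2* and *Naip5*, sensors of bacterial proteins, went from 0.1 and 0.0252 CPM in WT to 34.7 and 4.20 in *6KO1* and to 46.8 and 13.1 in *E1E2 G9Gl*, and since they are close paralogs their reads may be split between copies. *Aim2*, the cytosolic DNA sensor, went from 4.02 CPM to 42.9 in *6KO1* (log2 fold change 3.40, SE 0.14, adjusted p = 7.1e-16 by edgeR), 31.5 in the *E1E2 G9Gl* line and 24.1 in *6KO2*. It fell in the lines before them, by 4.32 on the log2 scale in *E2* (SE 0.29, 0.200 CPM), by 4.18 in *E1E2* (SE 0.28, 0.212 CPM) and by 2.72 in *E1 S1S2* (SE 0.22, 0.618 CPM). *Gbp5* was at 0.0132 CPM in WT and at 1.46 in *6KO1*, 1.52 in *E1E2* and 2.45 in *6KO2*, but at 0.136 in *E1E2 G9Gl*. *Il1a*, an alarmin cytokine gene, had 0 counts in WT and was at 0.878 CPM in *6KO1* and 0.228 in *6KO2*. *Il18*, a cytokine precursor cut by caspase-1, fell by 4.89 on the log2 scale in *6KO1* (SE 0.54), from 0.850 to 0.0243 CPM, and also fell in *E1*, *E1 S1S2* and *E1E2*, but rose to 3.12 CPM in *E1E2 G9Gl*. *Gsdmd*, the pore former cut by caspase-1 and caspase-4, was expressed in WT at 36.6 CPM and was not called in any condition. It was at 41.2 CPM in *6KO1* (0.17, SE 0.07, adjusted p = 0.026) and below WT in *6KO2* at 22.7 (-0.69, SE 0.07, adjusted p = 1.5e-08 by edgeR), in *E1* at 25.4 (-0.53, SE 0.07) and in *E1 S1S2* at 28.1 (-0.38, SE 0.07). *Il18*, *Aim2*, *Gsdmd* and *Pdgfra* were named after their values were seen.

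Of 19 genes of mitochondrial apoptosis, 18 were tested, and 4 rose and 1 fell in *6KO1*, 1 rose and 2 fell in *E1E2 G9Gl*, and 1 rose and 1 fell in *6KO2*. The share that rose was 22.2% in *6KO1*, near the 20.6% of all genes, and 5.56% in *E1E2 G9Gl* and in *6KO2*, below the 16.8% and 15.3% of all genes. The BH3-only genes *Bmf*, *Bcl2l11* (BIM) and *Bbc3* (PUMA) rose in *6KO1* by 2.44 (SE 0.23), 2.02 (SE 0.11) and 1.21 (SE 0.13) on the log2 scale. *Endog*, a mitochondrial nuclease gene, fell by 1.05 (SE 0.13). *Bcl2l11* was at 10.97 CPM in WT and 44.5 in *6KO1*, and rose also in *E1E2* (32.6 CPM, 1.57, SE 0.11) and *6KO2* (29.5 CPM, 1.43, SE 0.11). In *6KO2*, *Bcl2l11* was the only gene of this list that rose, so *Bmf* and *Bbc3* did not rise there. In *E1E2 G9Gl*, *Bcl2l11* (0.53) and *Bbc3* (-0.14) were not called. *Pmaip1* (NOXA), a further BH3-only gene named after its values were seen, went the other way in part of the lines. It fell from 15.6 CPM in WT to 0.824 in *E1E2 G9Gl* (-4.23, SE 0.17), 2.98 in *E2* (-2.37, SE 0.14), 6.87 in *E1E2* (-1.18, SE 0.12) and 6.30 in *E1* (-1.31, SE 0.12), but rose to 31.3 in *E1 S1S2* (1.00, SE 0.11). Its levels in *6KO1* and *6KO2* are not given here.

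**Figure D4:**
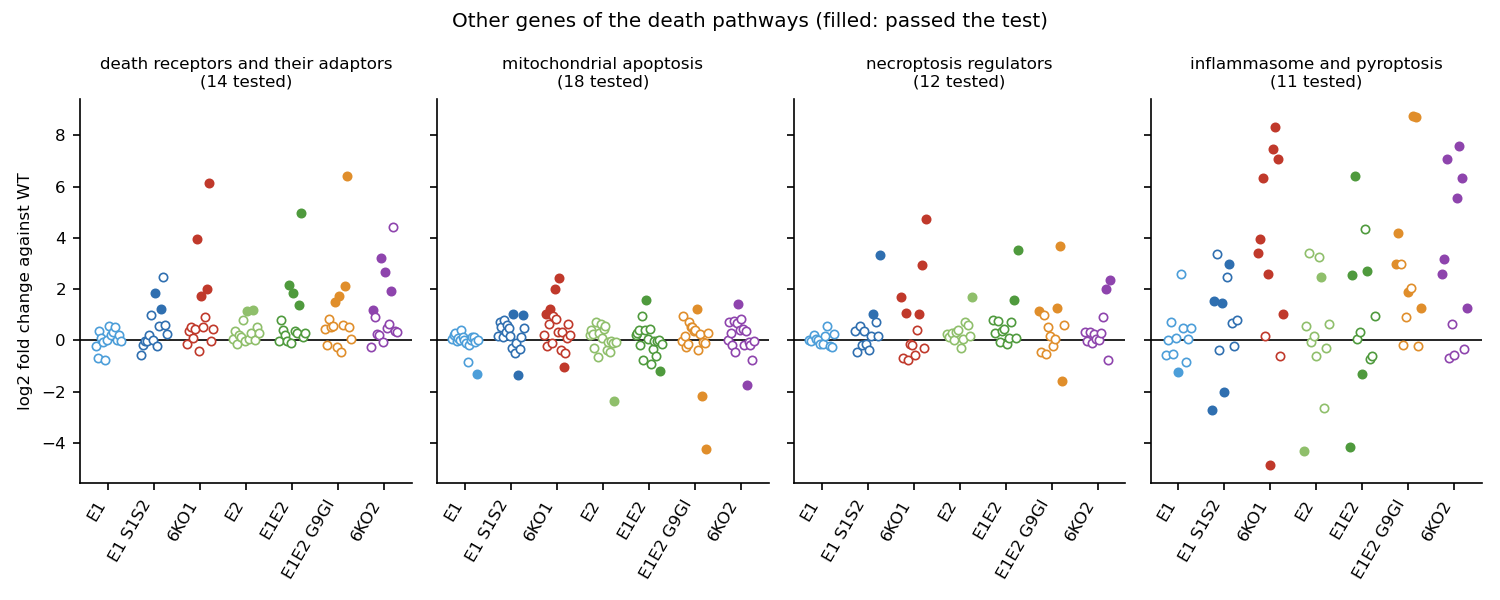
Log2 fold change against WT (y axis) of every tested gene of 4 pathway lists (panels) in the 7 mutant conditions (x axis), 1 point a gene, filled where called. The inflammasome and pyroptosis panel holds the points furthest above 0 in *6KO1*, *E1E2 G9Gl* and *6KO2*, and genes with 0 counts in WT have fitted values that depend on the prior count.

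The genes whose log2 CPM followed each member most closely over the 24 libraries were, by Pearson's r and as a description, *Gm364*, *Hc* and *Gm6871* for *Casp1* (0.99, 0.99 and 0.99), *Ampd3*, *Zfp456* and *Odaph* for *Casp4* (0.95, 0.93 and 0.93), and *Aspa*, *Kcnab1* and *Zkscan7* for *Casp12* (0.94, 0.94 and 0.94). For *Mlkl* they were *Mirt1*, *Clk3* and *Nod1* (0.93, 0.92 and 0.91), and for *Ripk1*, *Arhgap10*, *Crybg3* and *Cpd* (0.95, 0.93 and 0.92). *Casp9* was followed by *Abca7*, *Iqsec2* and *Tns2* (0.92, 0.92 and 0.91), and *Casp8* by *Lclat1*, *Tex10* and *Zbtb41* (0.90, 0.90 and 0.89). No member was among the 3 genes most like another member.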

How the data were processed

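Counts of 24 stranded total RNA libraries were used. Reads were trimmed with cutadapt 1.8.1, aligned to GRCm38 with STAR 2.5.2b and counted with TEtranscripts by the authors, who deposited whole-number counts per gene and repeat element without normalization. The annotation release and strand setting of the counting were not given in the sources used here. Groups were taken from the sample titles. The fit used edgeR 4.0.16 (limma 3.58.1, R 4.3.3): filterByExpr by condition, TMM factors from genes, 1 coefficient per condition over all libraries, two-sided quasi-likelihood tests and Benjamini-Hochberg adjustment over 18565 genes, in 13 comparisons and 2 interaction contrasts. 1 malformed entry (0.00201% of counts) was left out. Members were taken by symbol, and members and gene lists were chosen with earlier results of these data known. The genes named are the 8 members, the KMT genes, per list up to 4 called genes with the largest change in *6KO1* and the genes counted, and per member the 3 most alike genes. Some genes of the lists are not reported here. Replicate pairs differed by more than sampling noise (chi-square per gene from 2.12 to 62.8). On data simulated for *6KO1* minus WT over 17512 genes, 43.3% of genes changed 2-fold, 91% of those changed 4-fold and 95.5% of those changed 8-fold were called, with 0 false calls. A 2-fold change lies at the fold minimum itself. Simulated counts were independent around 1 mean per gene, with no outlying library and no clone effect. False calls in the real data were therefore not measured. Exon lengths came from GENCODE and promoters from RefSeq. Alternatives included DESeq2 1.42.0.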

Additional observations from a re-analysis of the deposited data

Results flagged for a closer look

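The change of *Casp4* after 4-OHT differed between the parent clone and the *Eset2*-mutant clone. From WT to *E1* its log2 fold change was -0.98, and from *E2* to *E1E2* it was 1.18. The difference between both changes was 2.16 (SE 0.41, adjusted p = 6.1e-04, edgeR's quasi-likelihood test, adjusted over all genes), and 3.42% of all genes tested were called for this difference. All *E1* libraries lay below all WT libraries, and all *E1E2* libraries lay above all *E2* libraries. When each of the 12 libraries was left out in turn, a check added after the data were seen, the difference stayed called and ran from 1.71, without *E2* replicate 2, to 2.49. *Setdb1* counts did not separate *E2* from *E1E2*, and each of the compared lines is 1 clone.

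The change of *Casp12* with the loss of *Suv39h1* and *Suv39h2* differed between both series. From *E1E2 G9Gl* to *6KO2* it was -1.74 on the log2 scale, and from *E1* to *E1 S1S2* it was -0.56. The difference between both changes was -1.18 (SE 0.22, adjusted p = 8.2e-05 by edgeR), with 16.5% of all genes tested called for it. The gene was lower in all *6KO2* than in all *E1E2 G9Gl* libraries, and in all *E1 S1S2* than in all *E1* libraries. With each library left out in turn the difference stayed called, between -1.26 and -1.07.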

How the results depend on the processing

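Calls near the fold minimum or resting on 3 libraries of 1 clone limit these results, and single counts limit *Ripk3* and *Casp1*. Over all alternatives, 302 counts of members kept within 1.5 times of their reported value and 28 did not, while 1379 single values kept direction and call, 33 gained a call, 14 lost one and 22 changed sign. The settings without a fold minimum and with an unadjusted p reuse the main fit, so single values there could not change sign. Counts of 0 that stayed 0 are among those kept, so part of this tally was fixed in advance. Without a fold change minimum, 2 members were higher in *E1*, 2 in *E1 S1S2*, 6 in *6KO1* and 2 in *E2*. Of all 18565 genes tested, 1248, 3696, 6667 and 2328 were higher in these conditions at that setting. There 1 member was lower in *6KO1*, 2 in *E2* and 1 in *E1E2 G9Gl*, beside 5632, 2676 and 5245 of all genes. That setting also called 4 members between *E1 S1S2* and *E1*, 5 between *6KO1* and *E1 S1S2*, and 2 between *E1E2* and *E2*. Over all genes these comparisons had 2997 higher and 3220 lower, 5647 and 4257, and 1222 and 996. It called 4 members between *E1E2 G9Gl* and *E1E2*, 3 between *6KO2* and *E1E2 G9Gl*, and 4 between *6KO1* and *6KO2*. Over all genes these had 5320 higher and 4592 lower, 3962 and 4141, and 4644 and 4492. With only genes of a mean normalized count above 100, which left out *Casp1*, 1 member was higher in *6KO1*, 1 was called between *E1E2 G9Gl* and *E1E2*, and 1 between *6KO1* and *6KO2*. With only the 6 libraries compared, 1 member was lower in *E1 S1S2* than in WT and 0 were called between *E1E2* and *E2*. DESeq2 called 1 between *6KO1* and *6KO2*.

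Leaving out 1 library at a time gave 0 to 2 members lower in *E1 S1S2*, 0 to 1 higher in *E2*, 0 to 1 between *E1E2* and *E2*, 1 to 2 between *6KO1* and *6KO2*, and 1 to 2 with an interaction of 4-OHT and the *Eset2* clone. Values that changed sign were all near 0 in at least 1 fit. Leave-one-out ranges were -0.014 to 0.045 for *Casp8* in *E1*, -0.038 to 0.10 for *Casp9* in *E1*, -0.061 to 0.10 for *Mlkl* in *E1 S1S2*, -0.052 to 0.091 for *Casp9* in *E1E2*, -0.49 to 0.012 for *Casp12* in *E1E2* and -0.43 to 0.070 for *Casp12* in *6KO2*, all against WT. They were -0.015 to 0.099 for *Ripk1* between *E1E2* and *E2*, -0.27 to 0.0044 for *Casp4* between *6KO2* and *E1E2 G9Gl*, -0.0079 to 0.27 for the *Suv39h* interaction of *Casp4*, and -0.023 to 0.20 for *Casp9* and -0.030 to 0.041 for *Ripk1* between *6KO1* and *6KO2*. The last value was also -0.0031 without a filter and above a mean count of 100, -0.0048 with factors from genes and repeats, and -0.00081 with 6 libraries. The cause was not tested.

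The replicate numbers did not pair the samples: residuals of same-numbered libraries correlated between -0.432 and 0.406 (median 0.0118). With the replicate block, 4 members were called higher for *E1E2 G9Gl*, 3 for *6KO2* and 2 for *6KO1*, as without it, and no count of calls moved.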
